A study of Mus musculus with 9 samples.

Results

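Ketogenic-diet (KD) and low-fat-diet (LFD) islets were compared in 4 and 3 RNA libraries, chosen by the diet in each sample's title, out of 9 libraries in the series. All were islets, the clusters of hormone-secreting cells in the pancreas, from male C57BL/6J wild-type (WT) mice that were 15 weeks old when the diets began and were fed them for 9 months. The KD held 89.9% fat, the LFD 10% fat and the high-fat diet (HFD, 2 libraries) 60% fat. HFD libraries are given only as side values. Of 56941 genes in the deposited table, 18548 passed a filter on low counts and were tested. Whether a library came from 1 mouse or from pooled mice is not stated in the labels, so the p-values measure only the spread between these samples. No isolation or sequencing batch is given there either, so a batch and the diet cannot be told apart.

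A diet very low in carbohydrate lowers glucose and insulin demand and raises fatty acid and ketone supply. In many tissues free fatty acids act on the nuclear receptor PPAR-alpha, which raises genes of fat oxidation and ketone production, while falling glucose lowers genes driven by the carbohydrate-sensing factor ChREBP. Beta cells make large amounts of proinsulin, which enters the endoplasmic reticulum (ER), is folded there, and travels through the Golgi to secretory granules. Islets isolated from the pancreas also carry some exocrine acinar cells, which make digestive enzymes, and some lymphocytes, ducts, vessels and connective tissue.

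The 7 libraries held 15513502 to 26588390 counts each, and insulin transcripts were abundant in all of them. Ins2 ran from 35510 to 48200 CPM on LFD and from 17780 to 63380 CPM on KD, where CPM is the count of a gene scaled to a common library size by TMM. In LFD replicates 1, 2 and 3 the acinar list held 40.6, 28.4 and 16.9% of all counts. In KD replicates 1 to 4 it held 68.4, 50.1, 63.5 and 22.7%, a difference that an exact permutation test did not separate (two-sided p = 0.229, 7 libraries). KD replicate 4 was thus within the LFD range and the other KD libraries were above it. Genes of the B and T lymphocyte lists and immunoglobulin segments took 0.189, 0.459 and 0.0488% of LFD counts and 0.0137, 0.0192, 0.0112 and 0.0251% of KD counts. These groups did not overlap (two-sided exact permutation p = 0.0571). This test doubles the one-sided p, and 0.0571 is the smallest it can give with 7 libraries. In bulk RNA, fewer cells of a type and less RNA per cell cannot be told apart. These 2 shares are given beside the results below, and LFD replicate 3, with the fewest lymphocyte transcripts of its group, and KD replicate 4, with the fewest acinar ones, are followed through them.

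**Figure D1:**
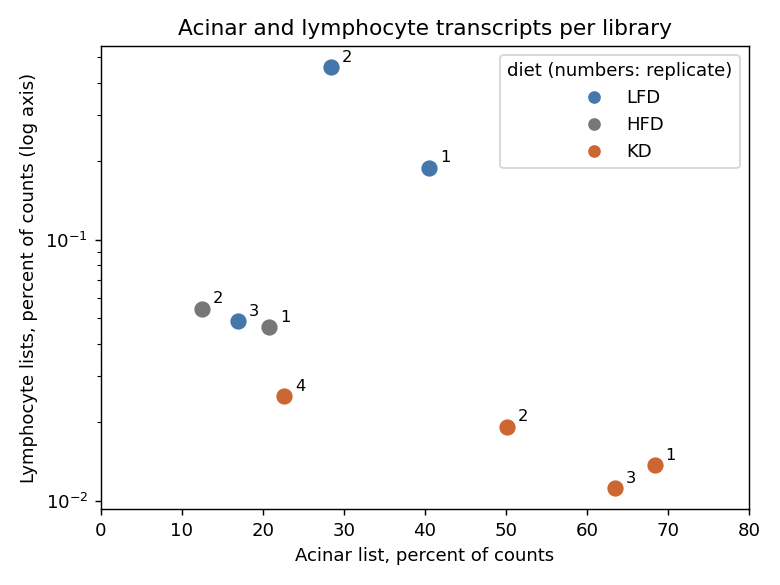
Percent of counts in the acinar list (horizontal axis) against percent in the lymphocyte lists and immunoglobulin segments (vertical log axis), 1 point per library, numbered by replicate. The 4 KD libraries lie lowest, between 0.0112 and 0.0251% lymphocyte counts, and KD replicate 4 shares the LFD range of acinar counts.

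On KD, 182 genes were higher (0.981% of those tested) and 582 lower (3.14%) at an adjusted p below 0.05 in edgeR's quasi-likelihood test. Without any test, all 4 KD libraries lay above all 3 LFD libraries for 1797 genes (9.69%) and below them for 1865 (10.1%). These shares are the background for the counts of each list below. Outside the acinar, B cell, T cell, pan-leukocyte and macrophage lists and the antigen receptor segments, 181 genes were called higher and 464 lower. The increases were small, with a median log2 fold change of 0.73, and 25 of them reached 2-fold. The decreases had a median of -1.67, and 370 of them reached 2-fold. With a score of acinar transcripts as a covariate, 146 of the 181 and 426 of the 464 were still called. With a lymphocyte score as a covariate, 0 genes were called by edgeR (2544 at an unadjusted p below 0.05), and the lymphocyte share itself separated the diets without overlap.

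The number of calls outside these lists, 645, changed with single libraries. It was 316, 162, 118 and 1214 when KD replicate 1, 2, 3 or 4 was left out, and 131, 185 and 758 when LFD replicate 1, 2 or 3 was. Without HFD replicate 1 or 2 it was 448 and 445. The increases depended on single libraries most. Leaving out LFD replicate 1, 2 or 3 gave 3, 38 and 92 increases, and leaving out HFD replicate 1 or 2 gave 104 and 102. Leaving out KD replicate 1, 2, 3 or 4 gave 38, 21, 8 and 683. Removing 1 library at a time, 2 increases and 87 decreases outside the lists were called in all 9 fits. The 2 increases were Creb3l3 and Adcy1.

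**Figure D2:**
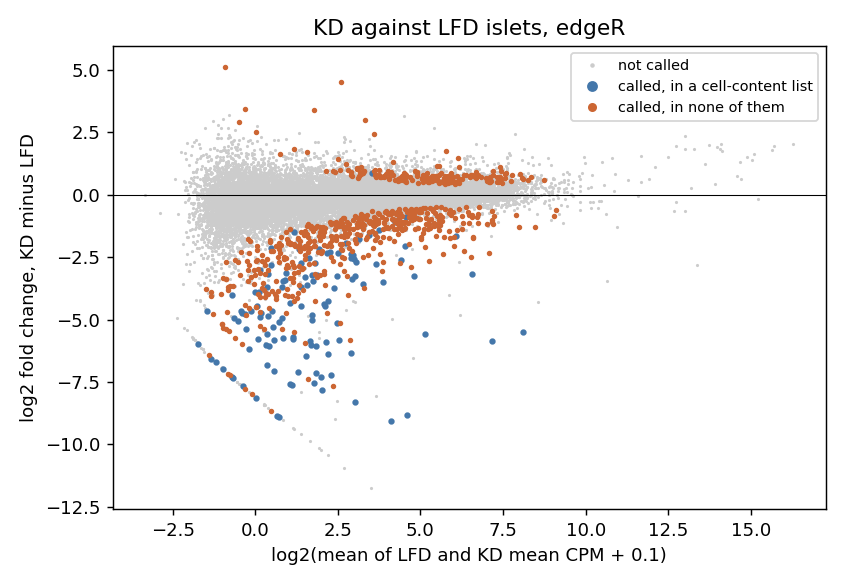
Log2 fold change of KD against LFD (vertical axis) by mean level (horizontal axis, log2 scale) for all 18548 genes. Called genes of the acinar and leukocyte lists are blue and the other called genes orange, and more of the orange points lie below 0 (464) than above it (181).

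Creb3l3 had the largest increase of the named genes. Its product sits in the ER membrane and, once cut free, acts as a transcription factor of lipid metabolism in liver and gut, and the gene is a known PPAR-alpha target. It was at 0.613, 0.403 and 0.469 CPM on LFD and at 17, 9.62, 13.8 and 5.69 CPM on KD. Every KD library was above every LFD library by a wide margin, and the HFD libraries (1.4 and 1.93 CPM) lay between. The change on the log2 scale was 4.53 ± 0.43 (SE; adjusted p = 0.00159 in edgeR), and 3.92 with the acinar score as a covariate. The 4 KD libraries were ordered as their acinar shares were, with replicate 4 lowest. The promoter of the gene is shown because this was the largest increase, with an AGGTCA half-site of nuclear receptors in capitals. It spans chr10:81092542-81092841 on the minus strand in GRCm38.p6 (RefSeq), and such a half-site, on either strand, is found in 18.1% of all genes with a promoter window, each gene counted once if any of its windows holds it.
Creb3l3: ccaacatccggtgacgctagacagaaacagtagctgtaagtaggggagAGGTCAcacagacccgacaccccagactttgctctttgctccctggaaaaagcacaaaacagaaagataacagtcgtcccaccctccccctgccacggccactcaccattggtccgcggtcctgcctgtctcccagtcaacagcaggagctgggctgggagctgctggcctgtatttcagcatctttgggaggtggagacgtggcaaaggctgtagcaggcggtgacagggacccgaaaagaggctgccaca

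Adcy1, an adenylyl cyclase that calcium and calmodulin activate to make cyclic AMP, was the other increase that held in every fit. It was at 4.48, 2.24 and 4.55 CPM on LFD and at 18, 23.7, 11.7 and 27.8 CPM on KD. KD replicate 4 was the highest library. On the log2 scale the change was 2.44 ± 0.35 (SE; adjusted p = 0.0072 in edgeR), and 2.67 with the acinar score. Both HFD libraries, at 5.55 and 3.48 CPM, were near the LFD level. Of the 59 genes of the cyclic AMP and calcium list, 3 were higher and 1 lower, with a median log2 fold change of 0.05. Over all genes tested, 0.981% were called higher and 3.14% lower. Prkaca, the catalytic subunit of protein kinase A, rose by 0.52 and Camk2b, a calcium-activated kinase, by 0.81 on the log2 scale. Adcy7, a cyclase common in blood cells, fell by 1.59.

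Fbp2, the muscle form of fructose bisphosphatase, rose by 3.40 ± 0.67 on the log2 scale (edgeR adjusted p = 0.0237). It was at 0.674, 0.403 and 0.657 CPM on LFD and 12.3, 5.52, 5.25 and 1.52 CPM on KD, so the groups did not overlap, and KD replicate 4 was again lowest. Sephs2, which makes the selenium donor for selenoproteins, was at 44.3, 37.5 and 28.2 CPM on LFD and 145, 83.4, 132 and 52.1 CPM on KD. Its log2 fold change was 1.49, and 0.84 with the acinar score as a covariate. Pxmp4, a peroxisomal membrane protein, was at 9.56 to 10.7 CPM on LFD and 34.8, 21.7, 30.7 and 14 CPM on KD. With the acinar score the log2 fold changes of Fbp2 and Pxmp4 were 2.16 and 0.82, from 3.40 and 1.31. The 4 KD libraries were ordered as their acinar shares were for Sephs2 and Pxmp4, and for Fbp2 apart from replicates 2 and 3, which were nearly equal. The part of acinar content was not tested beyond the covariate. Their calls were lost without some single libraries: the highest edgeR adjusted p was 0.0876 for Fbp2, 0.0944 for Sephs2 and 0.106 for Pxmp4.

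Other increases did not follow the acinar share. Kcnab3, a potassium channel subunit, was at 3.13, 3.81 and 2.2 CPM on LFD and at 6.61, 8.46, 6.59 and 10.8 CPM on KD, with a log2 fold change of 1.42 and KD replicate 4 highest. Smad6, an inhibitor of BMP signalling, was at 3.8, 5.02 and 2.86 CPM on LFD and 12.3, 7, 9.08 and 8.83 CPM on KD, and the HFD libraries were as high (8.85 and 8.42 CPM). Sox18, an endothelial transcription factor, had a log2 fold change of 1.07 and was also as high on HFD (12.1 and 13.2 CPM) as on KD (7.66 to 13.4 CPM). Etfb, which passes electrons from fatty acid oxidation to the respiratory chain, was at 6.62, 4.97 and 4.83 CPM on LFD and 11, 9.94, 12.5 and 11 CPM on KD. It rose by 1.02 ± 0.19 on the log2 scale (SE; adjusted p = 0.0181 in edgeR), and by 0.94 with the acinar score.

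**Figure D3:**
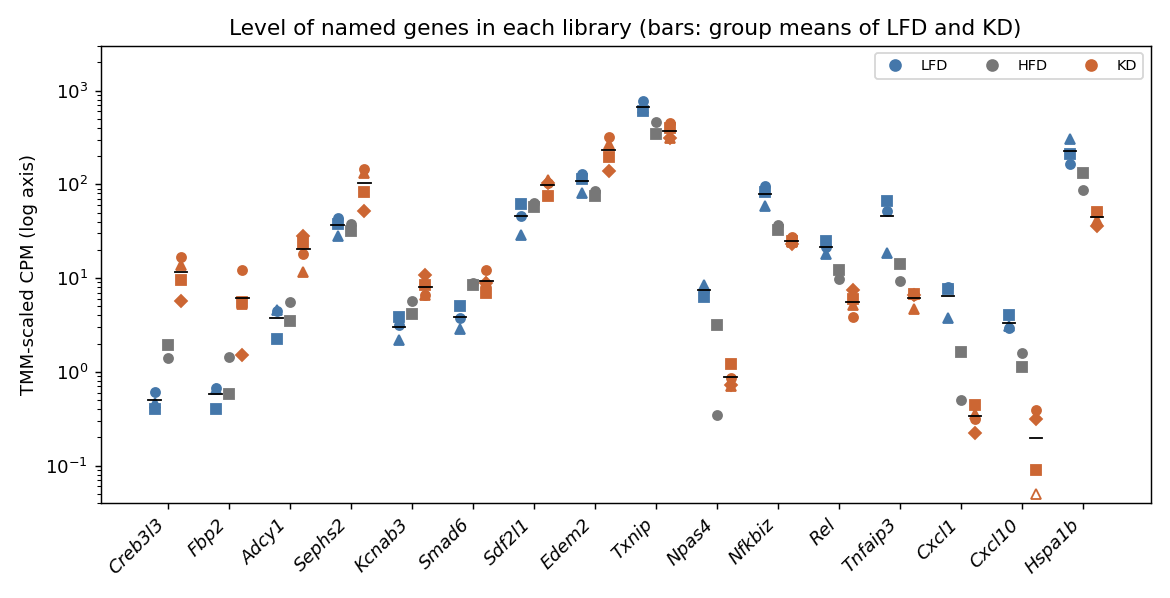
TMM-scaled CPM (log axis) of 16 named genes in each library, with black bars for the LFD and KD means and an open symbol for a library at 0, drawn at 0.05. Creb3l3 and Adcy1 lie higher in all 4 KD libraries, and the genes from Txnip onward lie lower in all of them.

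Genes of the early secretory pathway were higher together by small amounts. Across 7 lists (COPII coat, COPI coat, Golgi structure, translocon, N-glycosylation, ER chaperones and ER-associated degradation) 262 genes were tested, and all 4 KD libraries lay above all 3 LFD libraries for 113 of them and below for 0. Their median log2 fold change was 0.30, against -0.02 for all genes tested. Of the 262, 23 were called higher and 0 lower. Among all genes tested, 9.69% lay above without overlap, 10.1% lay below, and 0.981% were called higher. The mean log2 CPM of the 262 was 5.78, 5.83 and 5.62 in the LFD libraries and 6.10, 5.99, 6.12 and 6.06 in the KD libraries. The groups did not overlap. KD replicate 4 had an acinar share in the LFD range. It lay above all LFD libraries for 191 of the 262 genes (72.9%), against 29.3% of all genes tested. That library also had the highest beta cell list mean of all 9, 8.612 log2 CPM against 7.855 to 8.456 on LFD. It lay above all LFD libraries for 21 of 31 beta cell and 9 of 15 alpha cell genes, so this was not particular to the secretory lists. The median of the 262 was 0.30 with the acinar score and 0.28 without KD replicate 4. With the lymphocyte score it was 0.52 with 0 calls, and it was highest then for ER-associated degradation (0.83) and ER chaperones (0.74). The count of 23 became 5, 2, 0 and 36 when KD replicate 1, 2, 3 or 4 was left out, 0, 3 and 7 when LFD replicate 1, 2 or 3 was, and 12 when either HFD library was. At an unadjusted p below 0.05, 114 were higher and 1 lower in edgeR, and DESeq2 called 58 higher and 0 lower. Other lists rose as much. Translation factors had a median of 0.34, with 17 of 43 members higher and 1 lower without overlap. Aminoacyl-tRNA synthetases also had a median of 0.34, with 10 of 23 higher and 0 lower. The means of both lists in the KD libraries were ordered as their acinar shares were.

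Within each of the 7 lists the calls fell to 0 in at least 1 fit that left out a library. By step of the pathway, the translocon, which threads new proteins into the ER, had 6 of 38 members called higher and 20 with no overlap. Srpr, the receptor that docks ribosomes at the ER, was at 249, 274 and 212 CPM on LFD and 404, 369, 427 and 396 CPM on KD (log2 fold change 0.70 ± 0.14, edgeR adjusted p = 0.0247). Ssr1 rose by 0.62 and Sec61b, a subunit of the channel itself, by 0.63. In the COPII list, whose coat carries cargo out of the ER, 3 of 46 were called and 21 did not overlap. Tmed10, a cargo receptor, was at 136, 144 and 128 CPM on LFD and 213, 198, 215 and 209 CPM on KD, with a log2 fold change of 0.62 ± 0.12 (edgeR adjusted p = 0.02). The 4 KD libraries were within a narrow range there. In the COPI list, whose coat returns proteins to the ER, 3 of 28 were called and 18 did not overlap, with Scfd2 at 0.76, Arfgap3 at 0.70 and Kdelr1, a retrieval receptor, at 0.51.

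Golgi structure genes had 5 of 40 members called, among them Gorasp2, a stacking protein, which rose by 0.78, and Cog7, a tethering subunit, which rose by 0.63. N-glycosylation genes had 2 of 41 called, Rpn2 of the oligosaccharyltransferase (0.60) and Mogs, which trims new glycans (0.72). Among ER chaperones 2 of 41 were called. Sdf2l1, which keeps the chaperone BiP and its partners at work, was at 45.9, 61.8 and 28.8 CPM on LFD and 105, 74.3, 112 and 104 CPM on KD (log2 fold change 1.12 ± 0.23, edgeR adjusted p = 0.0279). ER-associated degradation had 3 of 29 called and the highest median of the 7 lists, 0.43. With the acinar score as a covariate its median was 0.29, and that of ER chaperones was highest, 0.35. The mean of the ER-associated degradation list in the KD libraries was ordered as their acinar shares were. Edem2, which marks misfolded glycoproteins, went from 129, 114 and 81 CPM to 323, 197, 270 and 140 CPM, and its log2 fold change was 1.11, or 0.60 with the acinar score. Os9, which recognises marked proteins, rose by 0.88, or 0.61 with that score. The KD libraries were ordered as their acinar shares were for Edem2, and for Os9 apart from replicates 1 and 3. Hspa5, the chaperone BiP, named here as a reference gene, was not called (log2 fold change 0.26, edgeR adjusted p = 0.468). The ER stress element, CCAAT and CCACG 9 bases apart on either strand, was found in 0 of the 18 called genes with a promoter window, and in 0.137% of all genes with a window. With a share that low, 0 of 18 is the usual count for any genes, so no conclusion is drawn from it.

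**Figure D4:**
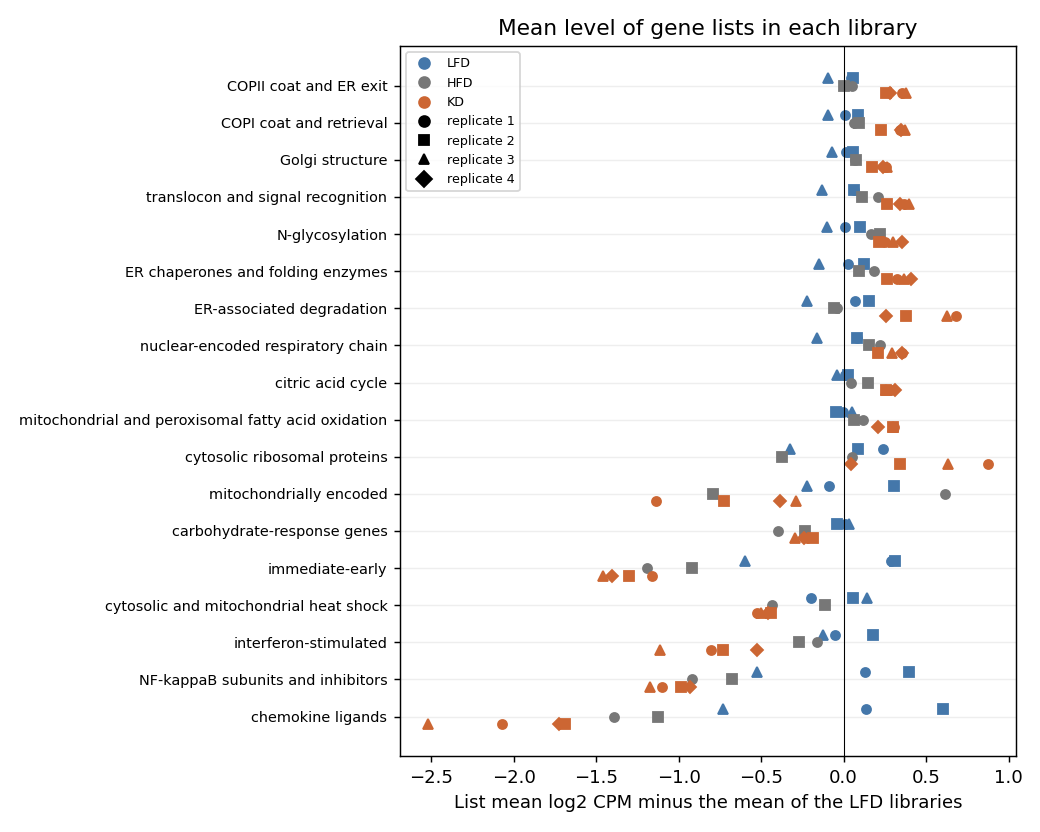
Mean log2 CPM of each gene list in each library, as the difference from the mean of the 3 LFD libraries; colour gives the diet and symbol the replicate. In the secretory pathway lists the KD libraries lie to the right of the LFD libraries, and in the immediate-early, heat shock, interferon, NF-kappaB and chemokine lists they lie to the left.

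Mitochondrial genes had medians of opposite sign in the nuclear and the mitochondrial genome. For comparison, 9.69% of all genes tested were higher and 10.1% lower without overlap, and 0.981% were called higher. Of 77 nuclear-encoded respiratory chain genes, 27 were higher in all KD libraries and 0 were lower, with a median log2 fold change of 0.30 and 4 calls. The calls fell to 0 without KD replicate 1, 2 or 3 and without LFD replicate 1 or 3. KD replicate 4 lay above all LFD libraries for 62 of the 77 (80.5%, against 29.3% of all genes tested). That library did so for 21 of 31 beta cell genes too. Ndufb9 of complex I was at 29.1, 27.2 and 21 CPM on LFD and 55.1, 44.7, 54.4 and 33.3 CPM on KD (log2 fold change 0.86, edgeR adjusted p = 0.0311). Atp5g3 of the ATP synthase was at 43.3, 43.9 and 37.7 CPM and at 63, 53.8, 58.3 and 60.1 CPM. Uqcrc1 of complex III rose by 0.69 and Cox6a1 of complex IV by 0.75. HFD libraries were also above the LFD mean, by 0.22 and 0.16 on the log2 scale of the list mean. Of 13 mitochondrially encoded genes, 8 were lower in all KD libraries and 0 were called by edgeR or DESeq2 (5 lower at an unadjusted p below 0.05), with a median of -0.64. The 2 HFD libraries differed more than the diets in these genes, with list means 0.61 above and 0.79 below the LFD mean on the log2 scale.

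Fat oxidation and citric acid cycle genes had positive medians with few calls. The shares over all genes tested were 9.69% higher and 10.1% lower without overlap, and 0.981% called higher. Of 45 genes of mitochondrial and peroxisomal fatty acid oxidation, 14 were higher and 2 lower in all KD libraries, the median log2 fold change was 0.30, and Etfb was the 1 call (0 without KD replicate 3 or without LFD replicate 2). Cpt1a, the carnitine transferase at the entry to mitochondrial oxidation and named here as a reference gene, was at 65.5, 68.7 and 64.8 CPM on LFD and 107, 97.7, 90.8 and 70.5 CPM on KD, without passing the test (log2 fold change 0.46, edgeR adjusted p = 0.0934). Of 33 citric acid cycle genes 11 were higher without overlap, the median was 0.36 and 2 were called (0 without KD replicate 2 or without LFD replicate 1). Slc25a1, which exports citrate from mitochondria, was at 28.1, 26.8 and 25 CPM on LFD and at 41.5, 44.3, 41.2 and 42.2 CPM on KD. The KD libraries were nearly equal, the log2 fold change was 0.67 ± 0.11 (edgeR adjusted p = 0.0134), and it was the same with the acinar score. Slc25a11, the oxoglutarate carrier, rose by 0.47. Cholesterol synthesis had 2 of 33 members called, Lss (0.53) and Scap (0.62).

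In the list of 29 PPAR targets, 2 genes were called higher and 2 lower. Among all genes tested, 0.981% were called higher and 3.14% lower. Creb3l3 is described above, Vnn1 fell by 1.16 and Txnip by 0.87 on the log2 scale. Txnip, an arrestin-like protein that glucose induces through ChREBP, was at 768, 613 and 647 CPM on LFD, 467 and 344 CPM on HFD and 452, 402, 312 and 316 CPM on KD. All KD and HFD libraries were below all LFD libraries. Of 17 carbohydrate-response genes, 5 were lower, 1 higher and the median was -0.02, so the list did not move as one. Arrdc4, a close relative of Txnip, went from 17.7, 19.1 and 22.3 CPM to 10.1, 12.2, 11.9 and 13.3 CPM (log2 fold change -0.72, edgeR adjusted p = 0.0314). Bhlhe40, a clock repressor that is also an early response gene, fell by 1.24. Gpd1, which makes glycerol phosphate, rose by 0.58. The calls of Txnip and Arrdc4 were lost without some single libraries, with highest edgeR adjusted p values of 0.111 and 0.0862. Pfkfb3, which makes the activator of glycolysis fructose 2,6-bisphosphate, fell by 1.02.

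Ribosomal protein genes differed with the acinar share. Over all genes tested, 9.69% were higher without overlap. Of 79, 78 had a positive log2 fold change with a median of 0.49, 8 did not overlap and 0 were called by edgeR, against 19 without KD replicate 4. At an unadjusted p below 0.05, 39 were higher, and DESeq2 called 10. The list mean was 0.88, 0.34 and 0.63 above the LFD mean in KD replicates 1 to 3 and 0.05 above it in KD replicate 4. With the acinar score the median was 0.12. KD replicate 4 lay above all LFD libraries for 8 of the 79 genes (10.1%, against 29.3% of all genes tested).

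**Figure D5:**
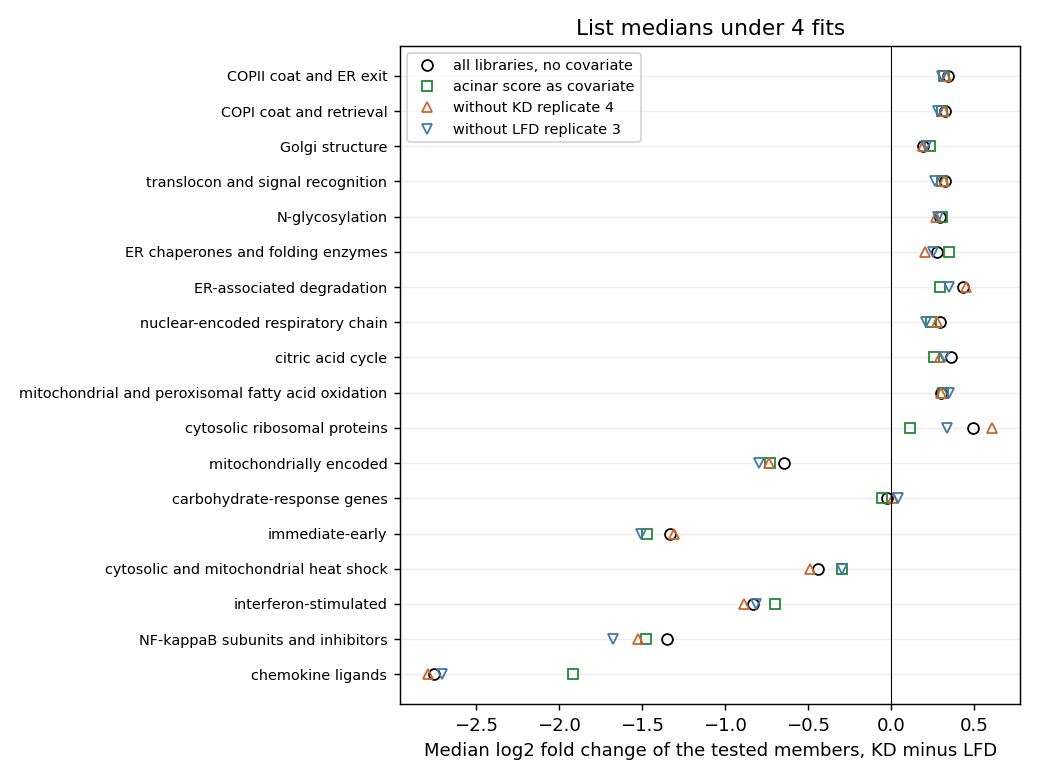
Median log2 fold change of each list (horizontal axis) in the fit with all libraries, with the acinar score as a covariate, without KD replicate 4 and without LFD replicate 3. The secretory pathway medians stay between 0.19 and 0.45 in these fits, while that of ribosomal proteins goes from 0.49 to 0.12 with the acinar score. That of ER-associated degradation goes from 0.43 to 0.29 with the same score.

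Few islet identity genes were called. For comparison, 0.981% of all genes tested were called higher and 3.14% lower. In KD replicates 1 to 4 the beta cell list mean was -0.42, 0.18, -0.09 and 0.49 from the LFD mean in log2 CPM. That is the reverse order of their acinar shares. KD replicate 4 lay above all LFD libraries for 21 of the 31 beta cell genes, against 29.3% of all genes tested. What part acinar content had in the list median below was not tested beyond the acinar covariate, which is given below for single genes only. Of 31 beta cell genes edgeR called 0, with a median log2 fold change of 0.02, 2 higher and 1 lower at an unadjusted p below 0.05, and 2 higher in DESeq2. Of 15 alpha cell genes it called 0, with 2 higher unadjusted and 1 in DESeq2. Of 9 delta and PP cell genes 1 was called, Hhex of delta cells, at a log2 fold change of -0.88. Gcg, the glucagon gene, was at 10090, 6966 and 8391 CPM on LFD and 7468, 10340, 7114 and 15790 CPM on KD. Of 32 beta cell transcription factors 0 passed edgeR's test (4 higher and 1 lower unadjusted, 1 higher in DESeq2). The lowest p was that of Mafa, an activator of insulin genes, at 74.7, 87 and 103 CPM on LFD and at 118, 174, 218 and 325 CPM on KD. These did not overlap, but the HFD libraries spanned 92.7 and 244 CPM, and the log2 fold change of 1.25 had an edgeR adjusted p of 0.098 (1.70 and 0.013 with the acinar score). The small GTPases of exocytosis Rab3d, Rab3a and Rab3b were the 3 calls among 55 secretory granule genes, with log2 fold changes of 0.97, 0.82 and 0.81. Rab3d was lowest on KD in replicate 4 (304, 195, 262 and 162 CPM), and Rab3a was highest there (31, 40.6, 31.6 and 49.3 CPM). With the acinar score these changes were 0.58, 1.11 and 1.05. Of 24 genes normally repressed in beta cells 0 were higher and 2 lower.

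Among the 15 largest decreases outside the cell lists were cytokine and chemokine genes, beside genes known from blood cells that are given further on. Il6, a cytokine, was at 9.63, 4.48 and 3.38 CPM on LFD and at 0, 0.0891, 0 and 0 CPM on KD, that is 329 counts against 2 and a rate ratio of 189 with a counting interval of 51.9 to 1566 (95%, counting error only). Ccl2, which attracts monocytes, was at 6.01, 7.98 and 2.44 CPM and at 0, 0.223, 0 and 0.0448 CPM. Cxcl1, which attracts neutrophils, was at 7.97, 7.66 and 3.75 CPM and at 0.311, 0.446, 0.356 and 0.224 CPM (log2 fold change -4.25 ± 0.47, edgeR adjusted p = 0.00235). In all 3 genes LFD replicate 3 was the lowest LFD library and lay above every KD library. Cxcl10, an interferon-induced attractant of T cells, was at 2.94, 4.03 and 3.1 CPM on LFD and at 0.389, 0.0891, 0 and 0.314 CPM on KD. HFD libraries were also low, at 0.5 and 1.63 CPM for Cxcl1 and 1.6 and 1.13 CPM for Cxcl10.

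The chemokine ligands were collected by symbol after the values had been seen. Among all genes tested, 3.14% were called lower. Of 23 tested, 10 were lower and 0 higher, and the median log2 fold change was -2.75 (-1.91 with the acinar score, -2.70 without LFD replicate 3 and -1.54 without LFD replicate 2). With a minimum of 5 CPM in 3 libraries 7 of them were tested, 2 were called lower and the median was -0.13. The calls ranged from 4 without KD replicate 2 to 13 without LFD replicate 3. A second family, 15 NF-kappaB subunits, inhibitors and kinases, was collected in the same way. NF-kappaB is the transcription factor that inflammatory signals release from its inhibitors, and it raises many chemokines as well as its own inhibitors. Of the 15, 7 were lower, 0 higher and the median was -1.35, or -0.84 without LFD replicate 2. Without 1 library at a time the calls ranged from 5 to 9, the highest without LFD replicate 3. Nfkbiz, an inducible nuclear inhibitor and coactivator, was at 96, 83.7 and 59.2 CPM on LFD and at 27.8, 24.8, 24.1 and 23.4 CPM on KD (log2 fold change -1.67 ± 0.16, edgeR adjusted p = 0.00159). Rel, a subunit, was at 21.4, 24.6 and 17.9 CPM and at 3.81, 6.06, 5.17 and 7.48 CPM. Nfkbia, the main cytoplasmic inhibitor, was at 84.7, 73.4 and 42.6 CPM and at 24, 25.3, 14.9 and 21 CPM. Tnfaip3, a feedback inhibitor, was at 52.5, 67 and 18.3 CPM and at 6.61, 6.82, 4.72 and 6.54 CPM. All 4 were called in each fit without 1 library. Rela, the main activating subunit, and Chuk, a kinase, both named after their values were seen, were not called, with log2 fold changes of -0.11 and 0.00.

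Promoters of 4 of these genes are shown because they moved together and hold a kappaB site, the sequence NF-kappaB binds, which is in capitals. They are RefSeq windows in GRCm38.p6 from 250 bases before to 50 after the start: Cxcl1 at chr5:90890995-90891294 on the plus strand, Cxcl10 at chr5:92348840-92349139, Nfkbia at chr12:55492598-55492897 and Rel at chr11:23770920-23771219 on the minus strand.
Cxcl1: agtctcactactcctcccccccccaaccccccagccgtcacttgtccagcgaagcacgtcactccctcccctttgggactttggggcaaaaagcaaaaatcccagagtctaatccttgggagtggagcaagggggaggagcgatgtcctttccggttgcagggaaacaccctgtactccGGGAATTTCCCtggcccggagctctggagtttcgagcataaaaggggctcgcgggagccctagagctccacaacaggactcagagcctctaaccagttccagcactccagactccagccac
Cxcl10: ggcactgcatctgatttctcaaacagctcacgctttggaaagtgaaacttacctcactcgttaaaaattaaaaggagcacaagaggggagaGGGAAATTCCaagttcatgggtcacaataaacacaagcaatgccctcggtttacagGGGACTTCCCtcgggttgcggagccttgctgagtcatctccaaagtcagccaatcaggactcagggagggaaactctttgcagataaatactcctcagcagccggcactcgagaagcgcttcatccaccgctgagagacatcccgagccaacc
Nfkbia: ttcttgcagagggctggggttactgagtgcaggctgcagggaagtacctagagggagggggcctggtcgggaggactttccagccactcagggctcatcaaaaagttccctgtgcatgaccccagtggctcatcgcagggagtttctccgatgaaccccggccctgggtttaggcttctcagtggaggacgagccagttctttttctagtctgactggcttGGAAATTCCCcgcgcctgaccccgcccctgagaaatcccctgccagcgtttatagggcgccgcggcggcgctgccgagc
Rel: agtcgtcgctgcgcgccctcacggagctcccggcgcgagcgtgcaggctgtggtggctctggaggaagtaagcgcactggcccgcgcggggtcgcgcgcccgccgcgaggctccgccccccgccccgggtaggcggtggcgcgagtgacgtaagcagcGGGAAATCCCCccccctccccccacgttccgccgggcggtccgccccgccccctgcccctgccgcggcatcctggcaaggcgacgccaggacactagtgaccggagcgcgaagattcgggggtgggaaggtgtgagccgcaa
The site was searched on both strands and overlapping matches were merged. Of the 17 called genes of both families, 9 had a window and 8 of those held a match: Cxcl1, Cxcl2, Cxcl10, Nfkb2, Nfkbia, Nfkbie, Rel and Tnfaip3. Of the 19 family members with a window that were tested and not called, 4 held one, and the share over all genes was 5.14%. A match is a description of the letters, not of binding.

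Immediate-early genes, which cells switch on within minutes of a stimulus, were lower as a group. Over all genes tested, 3.14% were called lower and 10.1% were lower without overlap. Of 37 tested, 22 were called lower and 0 higher, and 24 had all KD libraries below all LFD libraries. The median log2 fold change was -1.33, or -1.47 with the acinar score. Without 1 library at a time the calls ranged from 13 (without KD replicate 3) to 24 (without LFD replicate 3). Egr1 was at 168, 140 and 84.8 CPM on LFD, 35.7 and 49 CPM on HFD and 33.5, 27.4, 24.2 and 25.3 CPM on KD (log2 fold change -2.25 ± 0.22, edgeR adjusted p = 0.00164). Fos was at 173, 162 and 106 CPM on LFD and at 57, 42, 43.9 and 40.6 CPM on KD. Atf3, also a stress response factor, had the lowest adjusted p of the list, 0.000784 in edgeR, and was at 80.4, 67.8 and 51.9 CPM on LFD and at 13.2, 10.5, 6.86 and 11.4 CPM on KD. Socs3, which cytokines induce through STAT3, fell by 1.84. Npas4, which calcium entry induces in neurons and beta cells, was at 7.36, 6.36 and 8.49 CPM on LFD and at 0.856, 1.2, 0.713 and 0.717 CPM on KD. LFD replicate 3, with the lowest lymphocyte share of its group, was the lowest LFD library for Egr1, Fos and Atf3 and the highest for Npas4. The full cyclic AMP response element, TGACGTCA, was in 3 of the 18 called genes with a promoter window (Btg2, Dusp1 and Maff) and in 2.03% of all genes with a window. The CArG box, which serum response factor binds, was in 1 of the 18 (Zfp36) and in 1.81% of all genes with a window.

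Some heat shock genes, which encode chaperones of the cytosol and mitochondria, fell on KD. Among all genes tested, 3.14% were called lower and 10.1% were lower without overlap. Of 34 in the list 10 were called lower and 0 higher, 12 had a positive log2 fold change, 15 were lower and 2 higher without overlap, and the median was -0.44 (-0.28 with limma-voom). The calls fell to 5 without KD replicate 2. Hspa1a, an inducible chaperone of the HSP70 family, was at 117, 148 and 209 CPM on LFD, 63 and 88.1 CPM on HFD and 34.9, 33.3, 22.4 and 22.7 CPM on KD (log2 fold change -2.48 ± 0.23, edgeR adjusted p = 0.00159). Hspa1b, a near-identical copy whose reads may have been split with it, was at 165, 208 and 308 CPM and at 51.4, 50.5, 42 and 36.4 CPM. Dnaja1, a partner of HSP70, was at 161, 174 and 206 CPM and at 71.8, 86.4, 78.4 and 80.3 CPM, with a log2 fold change of -1.18. Hspb1, a small heat shock protein, fell by 1.67. LFD replicate 3 was the highest library for Hspa1a, Hspa1b and Dnaja1, and the lymphocyte share was highest in LFD replicate 2. The promoter of Hsph1, which encodes a nucleotide exchange factor of HSP70, is shown because it holds the full heat shock element in capitals, at chr5:149636287-149636586 on the minus strand in GRCm38.p6.
Hsph1: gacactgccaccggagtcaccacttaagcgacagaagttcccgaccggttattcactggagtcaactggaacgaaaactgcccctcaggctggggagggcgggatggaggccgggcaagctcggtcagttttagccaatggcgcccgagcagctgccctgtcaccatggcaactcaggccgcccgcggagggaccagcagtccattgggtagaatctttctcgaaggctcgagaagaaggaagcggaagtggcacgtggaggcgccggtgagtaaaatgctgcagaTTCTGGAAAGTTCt
The element, GAANNTTCNNGAA on either strand, was in 2 of the 9 called genes with a window (Chordc1 and Hsph1) and in 0.662% of all genes with a window.

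Metallothioneins, which bind zinc and respond to metals, glucocorticoids and stress, had the same order. Mt2 was at 22.9, 33.4 and 51.8 CPM on LFD and at 5.37, 6.46, 4.72 and 5.24 CPM on KD (log2 fold change -2.72 ± 0.35, edgeR adjusted p = 0.00511). Mt1 was at 68.4, 75.3 and 109 CPM and at 36.5, 29.1, 36.8 and 21.8 CPM. HFD replicate 2, at 33 and 86.3 CPM, was in the LFD range for both genes, and HFD replicate 1, at 12.2 and 32.4 CPM, was below it. Both belong to the list of 46 antioxidant genes, of which 3 were called lower (against 3.14% of all genes tested) and 0 higher, with a median of 0.08. The third was Mgst1, a membrane glutathione transferase, which fell by 1.04.

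Interferon-stimulated genes had 12 of 56 members called lower and 0 higher, 27 lower and 2 higher without overlap, and a median of -0.83. The calls ranged from 4 without KD replicate 2 to 17 without KD replicate 4. The shares over all genes tested were 3.14% called lower and 10.1% lower without overlap. Irf1, a transcription factor that interferon-gamma induces, was at 53.2, 58.4 and 37.7 CPM on LFD and at 18.4, 20.5, 15.6 and 22 CPM on KD (log2 fold change -1.38 ± 0.19, edgeR adjusted p = 0.00535). Irf9, part of the interferon signalling complex, fell by 0.97. Parp14 was at 43.4, 41.6 and 56 CPM on LFD and at 22.9, 26.9, 21.6 and 28 CPM on KD, with LFD replicate 3 highest. Nlrc5, the activator of MHC class I genes, was at 10.2, 18.2 and 6 CPM and at 2.26, 3.16, 1.78 and 3.09 CPM, in the order of the LFD lymphocyte shares. HFD libraries were 0.16 and 0.27 below the LFD mean on the log2 scale of the list mean, and the KD libraries 0.53 to 1.12 below it.

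Lymphocyte transcripts were lower in the same KD libraries. Of the 48 B cell genes tested 35 were called lower and 0 higher, and of 51 T and natural killer cell genes 35 lower and 0 higher (21 and 7 without KD replicate 3). Several of the largest decreases outside the lists encode proteins known from blood cells: P2ry10, Ptpn22, Myo1g, Spn, Hvcn1, Arhgap15, Traf1 and Syk. Syk, a kinase of B cell receptor signalling, was at 23.2, 44.5 and 8.39 CPM on LFD and at 3.81, 4.1, 1.6 and 2.42 CPM on KD, again with LFD replicate 2 highest. LFD replicate 3 was the lowest LFD library for 334 of the 464 decreases outside the lists (72.0%), and for 39.8% of all genes tested outside them. Both HFD libraries lay below all LFD libraries for 303 of the 464 (65.3%) and for 13.6% of all genes tested outside them. The 464 were called against these same LFD libraries, so a share above that of all genes is partly fixed by the choice. HFD lymphocyte shares were 0.0462 and 0.0543%, close to the 0.0488% of LFD replicate 3. In mean log2 CPM both HFD libraries were below that library, at -0.50 and -0.14 against 0.93 for the B cell list. For the T and natural killer cell list they were at -0.92 and -1.02 against 0.03. With the lymphocyte score as a covariate the median was -0.31 for immediate-early genes, -0.17 for chemokine ligands, 0.01 for the NF-kappaB family, -0.44 for interferon-stimulated genes and -0.45 for heat shock genes. The part of lymphocyte content in these decreases was not tested beyond that covariate, and lymphocyte content and diet cannot be told apart where their groups do not overlap.

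Among other cells of the preparation, duct, macrophage and red blood cell lists held decreases. For comparison, 3.14% of all genes tested were called lower and 10.1% were lower without overlap. Of 22 duct genes 8 were lower, with a median of -0.57, and without LFD replicate 1 the count was 2. Of 5 red blood cell genes all had a negative log2 fold change, with a median of -1.18, 4 were lower without overlap and 1 was called. This was the haemoglobin gene Hba-a1, which has a near-identical copy whose reads may have been split with it, at 17.4, 19.3 and 12.4 CPM on LFD and 6.15, 9.13, 4.81 and 8.07 CPM on KD (log2 fold change -1.20, edgeR adjusted p = 0.0315). Spp1, a secreted duct protein, was at 220, 204 and 189 CPM on LFD, 113 and 82.8 CPM on HFD and 124, 84.9, 86.6 and 70.2 CPM on KD (log2 fold change -1.16 ± 0.19, edgeR adjusted p = 0.0115). Pkhd1, a cilium protein of duct cells, fell by 1.08. Of 33 fibroblast and stellate genes edgeR called 0, although all had a negative log2 fold change, the median was -0.78 and 15 were lower at an unadjusted p below 0.05. Without LFD replicate 3, 8 were called lower, and DESeq2 called 7 with all libraries. Of 28 macrophage and dendritic cell genes 4 were lower (0 without LFD replicate 1), among them the MHC class II gene H2-Aa, which fell by 1.63. With the lymphocyte score as a covariate the medians of the fibroblast and macrophage lists were 0.65 and 0.43, those of the duct and red blood cell lists -0.30 and -0.36, and 0 of their genes were called. In the endothelial list 1 of 22 genes, Sox18, was called higher, and 0 of 10 Schwann cell genes (1 lower unadjusted, 1 in DESeq2) and 0 of 7 adipocyte genes (0 unadjusted, 0 in DESeq2) were called by edgeR.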

How the data were processed

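Polyadenylated RNA of mouse islets was sequenced from strand-specific libraries, per the labels' protocols. The authors deposited raw read counts per gene for 9 samples. The submitters' processing notes name cutadapt 1.16, STAR 2.7.9a, featureCounts 1.6.3 and DESeq2 1.40.2 and the build GRCm39, with no role or settings. Columns were matched to samples by the identifier in each title.

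Counts were tested with edgeR 4.0.16 in R 4.3.3: filterByExpr, TMM, robust quasi-likelihood fit over all 9 libraries (LFD, HFD and KD means), KD minus LFD, two-sided, Benjamini-Hochberg adjustment over the 18548 genes, threshold 0.05. The standard error is the log2 fold change over the square root of F. List means used log2 CPM with a prior count of 2. Symbols were found for 51948 of 56941 identifiers. Totals of 15513502 to 26588390 counts limit the precision of genes under about 5 CPM, and intervals cover counting error only. On simulated counts from these means and spreads (17907 genes), 37% of 100 genes changed 2-fold and 65% of 100 changed 4-fold were called, with 4 false calls. Genes were drawn independently there, without differences in acinar or lymphocyte content, so these figures do not cover calls that such content makes.

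The gene lists, the groups compared and the naming rule were chosen with earlier results of these data known, so lists are described by counts and medians, beside those of all genes, with no list p. Named were the 15 largest increases and decreases (called, at least 5 CPM in the higher group, no overlap, outside the acinar and leukocyte lists), up to 4 called members of each list or the 2 with the lowest p, up to 2 abundant members of each cell list, and 5 genes of the earlier account. The families of chemokine ligands, NF-kappaB genes and axonemal dyneins were added after the values were seen. The values of 1 gene the rule names are not reported here. Alternatives tried were DESeq2 1.42.0, limma 3.58.1 (voom with quality weights), other scalings and filters, covariates for acinar and lymphocyte scores, a replicate block and leaving out each library. Promoter windows are RefSeq's in GRCm38.p6, and no coordinates were carried between builds.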

Additional observations from a re-analysis of the deposited data

Results flagged for a closer look

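In 138 groups of 4 KD libraries examined, 5 held a library that stood apart from the other 3 by Dixon's ratio at its 95% critical value, and chance flags about 1 in 20 groups. Il6 was at 0.0891 CPM in KD replicate 2 and at 0 in the other KD libraries, which is 2 counts. Ptgs2, the inducible cyclooxygenase, was at 1.12 CPM in KD replicate 4, above the other KD libraries and below all LFD libraries (1.78 to 21.1 CPM). Nr4a3, an immediate-early nuclear receptor, was at 1.03 CPM in KD replicate 4 and at 1.47 to 1.56 CPM in the others. Tnfaip3 was at 4.72 CPM in KD replicate 3, the lowest of its group. Sst, the somatostatin gene of delta cells, was at 1100 CPM in KD replicate 4 and at 593 to 679 CPM in the other KD libraries, while the LFD libraries held 669 to 832 CPM.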

How the results depend on the processing

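The 764 calls over all genes and the 645 outside the cell lists stayed within 1.5 times under other scalings (725 and 738, 608 and 622), without a low-count filter (1062, 950) and with only KD and LFD libraries (524, 438). They rose to 1773 and 1600 with DESeq2's Wald test, to 1873 and 1734 with limma-voom, and to 1497 and 1349 with the acinar score. They fell to 383 and 355 with a minimum of 5 CPM in 3 libraries, to 166 and 111 against a 1.5-fold threshold, and to 0 and 0 with the lymphocyte score. Leaving out 1 library gave 151 to 1348 and 118 to 1214. The replicate block gave 2003 and 1798. Deviations of same-numbered KD and LFD libraries from their group means had correlations of 0.22, -0.02 and -0.0026. These cannot exclude a pairing by number, and the labels give no batch, so the block was not used in the main fit. With the lymphocyte score as a covariate the log2 fold change turned positive for Ptgs2 (0.51), Myo1g (0.36), Hvcn1 (0.14), Traf1 (0.88), Syk (0.29), Nr4a3 (0.15), Nlrc5 (0.0012), Cenpa (0.34) and Zfp36l1 (0.34); the cause was not tested. No other alternative that was run turned the sign of a called named gene's change. The shares of calls that were higher moved with the test: outside the cell lists, 181 of 645 in edgeR, 666 of 1600 with DESeq2, 638 of 1734 with limma-voom and 553 of 1349 with the acinar score.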

Other observations

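Axonemal dynein heavy chains, the motors of beating cilia, were collected by symbol after their values had been seen. Of 11 tested, 3 were lower and 0 higher on KD, and the median log2 fold change was -1.18. Dnah2 was at 8.09, 7.66 and 12.6 CPM on LFD, 7.35 and 6.03 CPM on HFD and 4.36, 3.88, 3.74 and 3.85 CPM on KD (log2 fold change -1.25 ± 0.22, edgeR adjusted p = 0.0147, lower in 4 of 4 KD libraries). Dnah5 fell by 2.23 and Dnah10 by 1.78 on the log2 scale, both from under 3 CPM. Without KD replicate 2 none of the 3 was called by edgeR.

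Amy2b, an amylase gene in the acinar list, went against most of the acinar genes and was the 1 called there. It was at 230, 221 and 57.8 CPM on LFD, 24.5 and 23 CPM on HFD and 16.6, 11.8, 38.7 and 8.83 CPM on KD, with a log2 fold change of -3.18 (edgeR adjusted p = 0.0279). It was named after its value was seen. Its near-identical relatives can share reads with it. Of the 46 acinar genes, 42 had a positive and 4 a negative log2 fold change, and the median of the list was 1.49.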
